A study of Mus musculus with 6 samples.

Results

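The 10 genes described here encode GATA1 and the factors it is known to work with in blood cells: Gata1, Gata2, Zfpm1, Tal1, Lyl1, Lmo2, Ldb1, Runx1, Cbfb and Nfe2. They were taken by name from the 53801 gene entries of the deposited read count table. The rule uses no measured value, though the genes were chosen with earlier results of these data known. All 10 matched 1 Ensembl identifier each and passed the filter on low counts, which left 13631 genes for testing. RNA was sequenced from mouse fetal liver cells of day E12.5-13.5 of gestation in 2 groups of 3 libraries. One group carried Arid3a-FLAG, a doxycycline-inducible construct for FLAG-tagged ARID3A, which binds AT-rich DNA through its ARID domain. The other carried LUC, a doxycycline-inducible construct named only so in the labels. Cells of both groups came from a strain labelled B6J.129(Cg) that carries the allele Gt(ROSA)26Sortm1.1. The allele holds a cassette for Cas9 and EGFP, written (CAG-cas9*,-EGFP), and the strain label also has the code Fezh/J. Both groups also received sgGata1, a guide against Gata1, and the microRNA miR-125b. Doxycycline was given at 1 μg/mL for 48 h in both groups. The sample titles name the cells for Gata1s, the short form of GATA1 that lacks the N-terminal activation domain. No group with intact Gata1, without miR-125b or without doxycycline was analysed here. Whether the 3 libraries of a group came from separate animals, transductions or cultures is not stated, so the spread behind the p-values is that of these libraries and may be technical.

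GATA1 is a zinc finger protein that switches on red cell and megakaryocyte genes, and its relative GATA2 maintains progenitors and mast cells. FOG1, the product of Zfpm1, binds the zinc fingers of GATA factors and recruits corepressors. TAL1 and the related LYL1 bind DNA with E proteins, LMO2 bridges them to LDB1, and LDB1 joins such complexes into loops between enhancers and promoters. RUNX1 binds DNA with CBFB as its partner subunit, and NFE2 pairs with small MAF proteins to drive late platelet genes. Loss of full-length GATA1 in favour of GATA1s is known from the megakaryocytic leukaemia of children with Down syndrome.

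Library totals ran from 15728150 to 18249053 gene counts. Reads assigned to the Arid3a-FLAG construct numbered 3348, 3044 and 2758 where it was introduced and 0 in each LUC library. Markers of megakaryocytes summed to between 6892 and 7442 CPM (read counts scaled to a common library size, with TMM factors) in Arid3a-FLAG libraries and to between 6704 and 8443 CPM in LUC libraries, over 12 genes with none at 0. Most of this sum came from Pf4 (mean 3143 CPM with Arid3a-FLAG, 3938 with LUC) and Itga2b (2068 and 1778). Of the 12 genes 3 rose, 1 fell and 8 did not pass (median log2 fold change 0.28), beside 3.43% of all tested genes that rose and 3.87% that fell. Red cell markers summed to between 360.1 and 461.6 CPM with Arid3a-FLAG and to between 239 and 289.4 CPM with LUC over 11 genes, with Slc4a1, the anion exchanger of red cells, at 0 counts. Of 9 red cell markers tested, 1 rose and 2 fell, beside 3.43% and 3.87% of all tested genes. The falls numbered 1 on leaving out Arid3a-FLAG library 1, 2 or 3 or LUC library 1. Of 8 hepatocyte markers 7 stayed below 1 CPM in all 6 libraries, and the 10 endothelial markers summed to between 221.8 and 243.5 CPM with Arid3a-FLAG and to between 244.6 and 283.8 CPM with LUC. Most of the endothelial sum came from Pecam1, Egfl7 and Tie1, while Cdh5, Cldn5 and Sox17 were at 0. Of 5 endothelial markers tested, Kdr rose and Egfl7 fell. LUC library 2 stood apart from the other 5 on the second principal component (31.1, against -19.3 and -16.8 for the other LUC libraries and -5.1 to 12.2 for the Arid3a-FLAG libraries, with 24% of the variance). Calls of the 10 factors that change without it are given both ways.

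With Arid3a-FLAG, 1 of the 10 factors rose, none fell and 9 did not pass edgeR's quasi-likelihood test at an adjusted p of 0.05. The gene that rose was Tal1, by 1.3-fold. Of all 13631 tested genes, 3.43% rose and 3.87% fell (7.29% together), and 1 gene of 10 is too few to set the factors apart from these shares. Without adjustment 3 of the 10 had a p under 0.05 (Tal1, Runx1 and Zfpm1), against 25.6% of all genes, and DESeq2 and limma-voom also called 1 of the 10 each, where 5.66% and 3.57% of all genes rose. With the replicate number as a block in edgeR, 0 of the 10 passed, beside 940 genes in all. The log2 fold changes of the 10 ran from -0.16 to 0.38 with a median of 0.09, and 7 were above 0. Over all tested genes the median was -0.03 and 45.3% were above 0. For 4 of the 10 (Gata1, Zfpm1, Tal1 and Runx1) every Arid3a-FLAG library was above every LUC library, as for 16.6% of all genes. For Ldb1 every Arid3a-FLAG library was below, as for 16.5% of all genes. No test of the 10 as a group was made.

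**Figure D1:**
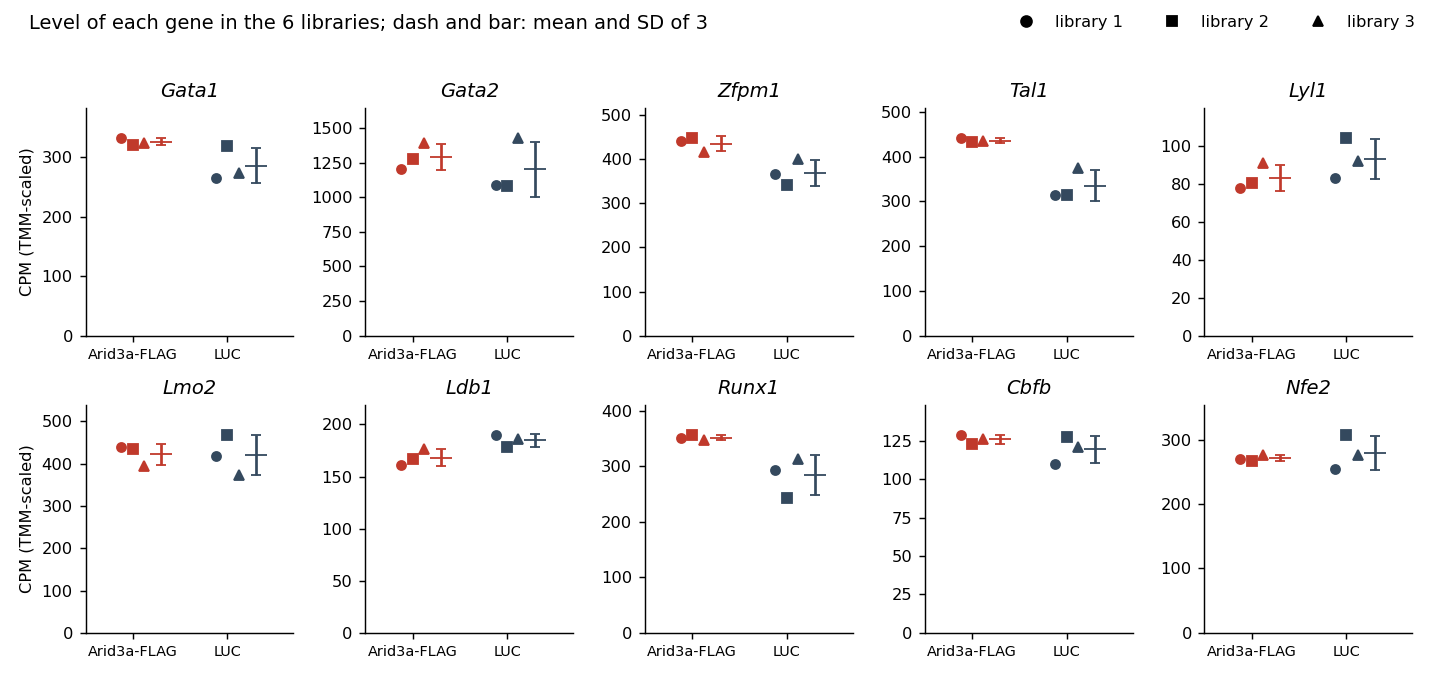
Level of each of the 10 factors in the 6 libraries, in TMM-scaled CPM on axes that start at 0, with Arid3a-FLAG on the left and LUC on the right of each panel; symbols mark libraries 1 to 3, and dash and bar are mean and SD. The Tal1 libraries with Arid3a-FLAG sit between 432 and 442.3 CPM, all above the LUC libraries, while those of Lmo2, Cbfb and Nfe2 overlap.

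Tal1 (ENSMUSG00000028717, chromosome 4, 115056426 to 115071755, plus strand, mm10) encodes a basic helix-loop-helix factor needed for blood formation. It had 442.3, 432 and 434 CPM with Arid3a-FLAG, against 314.4, 314.9 and 374.9 CPM with LUC. The groups did not overlap, the Arid3a-FLAG libraries lay close together, and LUC library 3 was the nearest of the LUC libraries. The log2 fold change was 0.38 (SE 0.10, 95% interval 0.16 to 0.60, edgeR adjusted p = 0.0444). The call depended on which libraries were included. It was kept on leaving out LUC library 2 (adjusted p = 0.0103) or 3 (0.0183). It was lost on leaving out Arid3a-FLAG library 1 (adjusted p = 0.179), 2 (0.175) or 3 (0.135) or LUC library 1 (0.114). In the same fits 0.821%, 0.941% and 1.5% of all genes rose on leaving out Arid3a-FLAG library 1, 2 and 3, and 1.36%, 8.52% and 4.42% on leaving out LUC library 1, 2 and 3. The log2 fold change stayed between 0.35 and 0.50 in these 6 fits. With the replicate number as a block it was 0.39, and the call was lost (edgeR adjusted p = 0.0733).

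The bases before the start sites of Tal1 are shown because it is the only one of the 10 factors past the threshold. RefSeq's table of promoters (GRCm38.p6) gave 2 start sites for Tal1. The windows below are the 250 bases before each, on the plus strand, with capitals for matches to the GATA motif. They lie at chr4:115056176-115056425 and chr4:115057561-115057810 and overlap no exon of GENCODE M21.
Tal1 start site 1: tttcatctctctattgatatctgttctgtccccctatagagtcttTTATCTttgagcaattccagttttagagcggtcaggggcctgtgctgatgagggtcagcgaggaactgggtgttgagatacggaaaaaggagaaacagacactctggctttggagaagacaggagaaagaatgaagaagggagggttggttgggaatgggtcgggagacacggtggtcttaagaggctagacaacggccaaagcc
Tal1 start site 2: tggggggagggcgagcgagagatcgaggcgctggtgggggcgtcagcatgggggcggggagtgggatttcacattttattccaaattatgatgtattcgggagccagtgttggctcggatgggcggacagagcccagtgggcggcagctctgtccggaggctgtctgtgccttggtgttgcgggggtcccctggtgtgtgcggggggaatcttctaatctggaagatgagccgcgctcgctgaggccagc
The GATA motif was searched on both strands as AGATAA, with AGATAG and, for a leading T, TGATAA and also TGATAG. A match stood 205 bases before the first start site, read there as TTATCT, and none stood before the second. ATTAAA, letters that ARID3A is known to prefer, and TGTGGT, those of RUNX factors, were in neither window. Among 32851 promoter windows of this length in the same table, 26.5% held the GATA motif, 12.7% held ATTAAA and 14% held TGTGGT. Of the 10 factors 8 were in the table, with 13 windows, and Lmo2 and Nfe2 were not. The GATA motif was in 2 of the 13 windows, ATTAAA in 1 and TGTGGT in 0. The other windows with a match belonged to Ldb1, where the third start site had both the GATA motif and ATTAAA. A match is a run of letters and does not show binding.

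Lyl1 (ENSMUSG00000034041, chromosome 8, 84701457 to 84704715), the close relative of Tal1, did not pass. Its libraries stood at 77.73, 80.41 and 90.78 CPM with Arid3a-FLAG and at 82.86, 104.1 and 91.7 CPM with LUC. The groups overlapped, and LUC library 2 was the highest of the 6. Its log2 fold change was -0.16 (SE 0.11, 95% interval -0.40 to 0.07, edgeR adjusted p = 0.368), and -0.06 without LUC library 2. The balance of the pair was read in each library as the log2 ratio of Tal1 to Lyl1 counts, a value that needs no scaling factor. It was 2.51, 2.43 and 2.26 with Arid3a-FLAG, against 1.92, 1.60 and 2.03 with LUC. All Arid3a-FLAG libraries were above all LUC libraries, with a difference of 0.55 on the log2 scale. The two-sided exact permutation test gave p = 0.1, the smallest that 3 libraries against 3 allow, and 0.15 after Benjamini-Hochberg adjustment over 3 ratios. With 1 library left out the difference ran from 0.42 (without LUC library 2) to 0.64.

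Gata1 (ENSMUSG00000031162, chromosome X, 7959260 to 7978071, minus strand) was at 332.5, 320.5 and 324.4 CPM with Arid3a-FLAG and at 264.2, 318.7 and 274 CPM with LUC. The lowest Arid3a-FLAG library and LUC library 2 were nearly level, and the other LUC libraries lay below. Its log2 fold change of 0.19 (95% interval -0.03 to 0.41) did not pass (edgeR adjusted p = 0.249). Without LUC library 2 it did, at 0.29 (adjusted p = 0.00862), in a fit where 8.52% of all genes rose. Without any other single library it did not pass. Gene counts do not separate transcripts for GATA1s from those for full-length GATA1, and they do not show editing by the guide.

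Gata2 (ENSMUSG00000015053, chromosome 6, 88193891 to 88207032) had the highest CPM of the 10 in every library, with 1203, 1274 and 1392 CPM in Arid3a-FLAG libraries and 1090, 1084 and 1431 CPM in LUC libraries. LUC library 3 was the highest of all 6, so the groups overlapped. Gata2 had a log2 fold change of 0.10 (95% interval -0.19 to 0.39, edgeR adjusted p = 0.668). With 1 library left out it ran from 0.05 (without Arid3a-FLAG library 3 or LUC library 2) to 0.28 (without LUC library 3) and did not pass. GATA2 is also a mast cell factor, and the markers of mast cells and basophils differed between the same libraries. They summed over 13 genes to between 1171 and 1902 CPM with Arid3a-FLAG, against 2266 to 2492 CPM with LUC, with 3 of 11 tested genes lower beside 3.87% of all genes, none higher, and Tpsb2 and Tpsab1 below 1 CPM in all libraries. These falls numbered 6 without Arid3a-FLAG library 3 (2.55% of all genes), and 5 with DESeq2 (5.8%) or limma-voom (3.85%). The part of these markers in the Gata2 value was not tested, and in bulk RNA fewer cells of a type and less RNA per cell cannot be told apart. The log2 ratio of Gata1 to Gata2 counts was -1.86, -1.99 and -2.10 with Arid3a-FLAG and -2.05, -1.77 and -2.38 with LUC. The difference of 0.08 was smaller than the SD of the LUC libraries (0.31), with a two-sided exact permutation p of 0.8 (also 0.8 adjusted over the 3 ratios), and it was -0.08 without LUC library 3.

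Zfpm1 (ENSMUSG00000049577, chromosome 8, 122282141 to 122337251) was at 442.1, 448.6 and 415.9 CPM with Arid3a-FLAG and at 366.1, 341.2 and 400.7 CPM with LUC. The groups did not overlap, though Arid3a-FLAG library 3 and LUC library 3 were close. A log2 fold change of 0.24 (95% interval 0.02 to 0.45) did not pass after adjustment (edgeR adjusted p = 0.156), nor in any of the 6 fits with 1 library left out, where the smallest adjusted p was 0.0663.

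Lmo2 (ENSMUSG00000032698, chromosome 2, 103957986 to 103981878) and Ldb1 (ENSMUSG00000025223, chromosome 19, 46031570 to 46045214) form the bridge of the complex. Lmo2 had 438.6, 434.2 and 393.4 CPM with Arid3a-FLAG, against 419.1, 467.8 and 373.4 CPM with LUC. LUC libraries 2 and 3 gave both the highest and the lowest of its 6 values. Lmo2 had a log2 fold change of 0.01 (95% interval -0.23 to 0.24, edgeR adjusted p = 0.976), and its sign changed between fits (-0.01 with upper quartile factors and -0.04 to 0.10 with 1 library left out). Ldb1 had 160.7, 166.4 and 176.7 CPM with Arid3a-FLAG, against 189.9, 178.1 and 186.4 CPM with LUC. Arid3a-FLAG library 3 was just below LUC library 2, and the log2 fold change of -0.14 did not pass (95% interval -0.33 to 0.05, edgeR adjusted p = 0.332). Ldb1 shares 177 bases of exon, 3.84% of its exon length, with Pprc1 on the opposite strand, and reads there cannot be told apart without strand. Lyl1 shares 4 bases with Nfix and Runx1 shares 106 bases with Gm26626 in the same way, and the other 7 factors share no exon with another gene.

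Runx1 (ENSMUSG00000022952, chromosome 16, 92601466 to 92826149) was at 349.9, 356.3 and 347.4 CPM in Arid3a-FLAG libraries and at 293.9, 243.3 and 313.7 CPM in LUC libraries. Every Arid3a-FLAG library was higher than every LUC library, and LUC library 2 was the lowest. The log2 fold change of 0.31 (SE 0.11, 95% interval 0.07 to 0.54) did not pass with all libraries (edgeR adjusted p = 0.105). Without LUC library 2 it passed with a smaller fold change, 0.22 (adjusted p = 0.0306), and with no filter on low counts it passed at 0.32 (adjusted p = 0.0415), where 3.63% of all genes rose. Its partner Cbfb (ENSMUSG00000031885, chromosome 8, 105170674 to 105217989) was at 128.8, 122.7 and 126.3 CPM with Arid3a-FLAG and at 110, 127.3 and 121.2 CPM with LUC, values that overlapped. For Cbfb the log2 fold change was 0.08 (95% interval -0.12 to 0.27, edgeR adjusted p = 0.623), and with 1 library left out it ran from 0.04 (without LUC library 1) to 0.14 (without LUC library 2). The log2 ratio of Runx1 to Cbfb counts averaged 1.48 ± 0.05 with Arid3a-FLAG and 1.24 ± 0.27 with LUC (SD, n = 3 each, two-sided exact permutation p = 0.1, adjusted 0.15). Its difference of 0.24 was 0.08 without LUC library 2.

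Nfe2 (ENSMUSG00000058794, chromosome 15, 103248212 to 103258403) stood at 270, 266.9 and 275.8 CPM with Arid3a-FLAG, against 254.5, 307.1 and 275.4 CPM with LUC. Its LUC values lay on both sides of the Arid3a-FLAG values. The log2 fold change was -0.04 (95% interval -0.25 to 0.17, edgeR adjusted p = 0.814), and 0.05 without LUC library 2. Over the 9 factors that did not pass, the 95% intervals lay between -0.40 and 0.54.

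**Figure D2:**
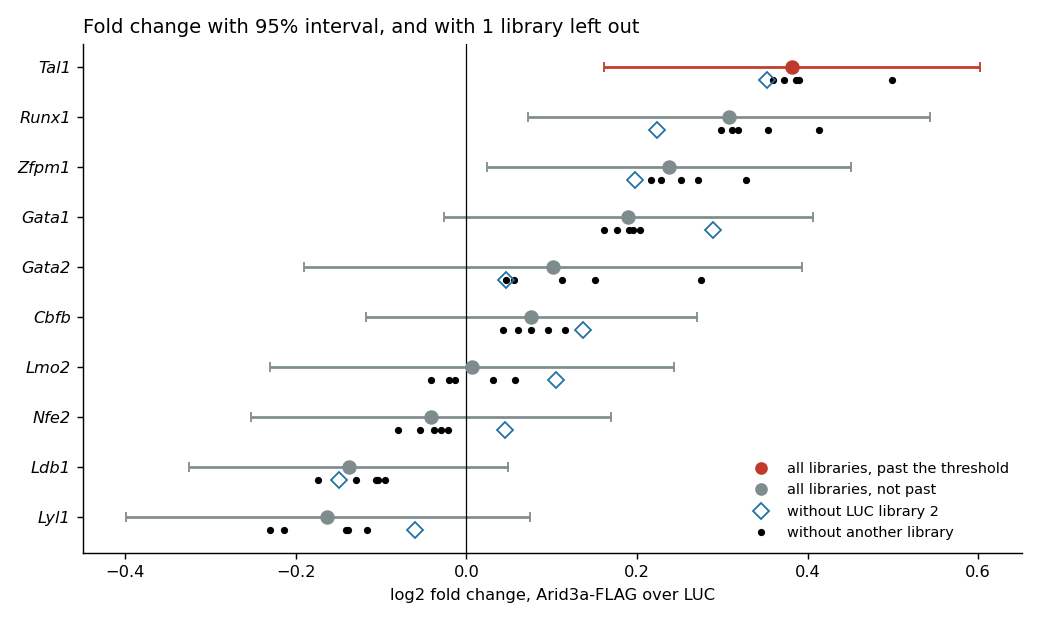
Log2 fold change of each factor, Arid3a-FLAG over LUC, with its 95% interval from edgeR (large points; red for Tal1, the only one past the threshold) and the value with each library left out in turn (small points below; open diamonds without LUC library 2). The intervals of Tal1, Runx1 and Zfpm1 lie above 0, and leaving out LUC library 2 moves Gata1 to 0.29, Runx1 to 0.22, Lmo2 to 0.10 and Nfe2 to 0.05.

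Per exon length the 10 factors were among the more abundant of the tested genes. Their mean CPM per kb of merged exon lay between percentile 82.8 (Runx1) and 98.6 (Gata2) of all tested genes. In Arid3a-FLAG libraries Gata2 was highest (238.9 ± 17.7 CPM per kb, SD, n = 3), and then came Lmo2 (194.9 ± 11.5), Gata1 (133.6 ± 2.52), Zfpm1 (124.3 ± 4.94), Tal1 (99.6 ± 1.25) and Nfe2 (90.7 ± 1.52). Lyl1 (46.1 ± 3.83), Ldb1 (36.5 ± 1.76), Cbfb (36.2 ± 0.88) and Runx1 (29.2 ± 0.38) followed. Ldb1 and Cbfb overlapped there, and all other neighbours in this order were apart in all libraries. In LUC libraries the order differed in 1 place, with Nfe2 (93.4 ± 8.86) above Tal1 (76.4 ± 7.94). There Gata2 overlapped Lmo2, Gata1 overlapped Zfpm1, Zfpm1 overlapped Nfe2 and Nfe2 overlapped Tal1. Exon lengths were merged over all annotated transcripts, so a gene with long alternative exons, such as Runx1 with 12025 bases, is set low on this scale.

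**Figure D3:**
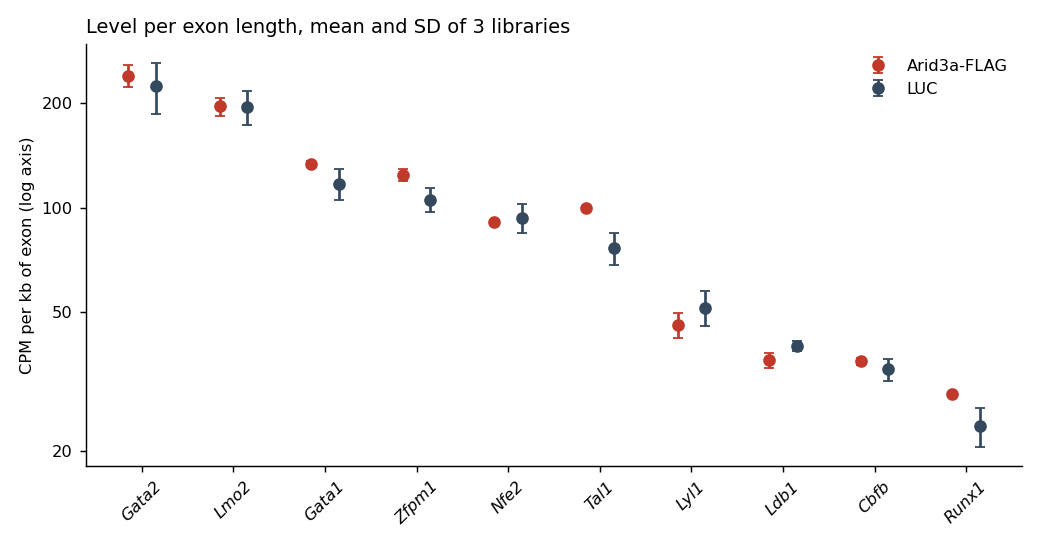
Level of the 10 factors in CPM per kb of merged exon on a log axis, as mean and SD of 3 libraries, with Arid3a-FLAG left of LUC for each gene. Gata2 and Lmo2 lead in both groups, and Tal1 stands at 99.6 with Arid3a-FLAG and 76.4 with LUC.

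Relatives of the 10 factors were mostly not expressed or did not pass. Of 17 listed relatives 6 were tested and none passed. The GATA factors Gata3, Gata4, Gata5 and Gata6, the FOG relative Zfpm2, and Tal2, Lmo1, Lmo3, Ldb2, Nfe2l3 and Bach2 did not reach the filter, with between 0 and 40 counts over all 6 libraries. Runx3, which was expressed at 213.2 ± 27.3 CPM with Arid3a-FLAG and 238.3 ± 50.4 CPM with LUC (SD, n = 3 each), had a log2 fold change of -0.16 (edgeR adjusted p = 0.545), which ran from -0.31 (without LUC library 2, adjusted p = 0.0453) to -0.01 (without LUC library 3). Runx2, chosen like the next gene after its values were seen, had the largest difference of the list at -0.66 (95% interval -1.11 to -0.22, edgeR adjusted p = 0.0736, 0.0216 without LUC library 2). Among E proteins, the DNA-binding partners of TAL1, and their ID inhibitors, none of 5 tested genes passed in edgeR, with 1 at an unadjusted p under 0.05. That was Tcf12, at 118.8 ± 1.40 CPM with Arid3a-FLAG and 94.4 ± 9.69 CPM with LUC (log2 fold change 0.33, edgeR adjusted p = 0.0601). DESeq2 called 1 gene in each of these lists, where 5.66% of all genes rose and 5.8% fell, and limma-voom none. None of the 3 SSBP genes, whose proteins protect LDB1 from degradation, passed in edgeR, DESeq2 or limma-voom, with 1 at an unadjusted p under 0.05. None of the 3 small MAF genes did, with 0 at an unadjusted p under 0.05. Without LUC library 2, 2 relatives fell and 1 E protein or ID gene and 1 small MAF gene rose, beside 7.83% of all genes that fell and 8.52% that rose. Without LUC library 3, 1 E protein or ID gene rose, beside 4.42% of all genes.

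Of 21 tested corepressors and coactivators 1 rose, none fell and 20 did not pass, with a median log2 fold change of 0.00. That count is near the 3.43% of all genes that rose. Hipk2, a nuclear kinase that acts on transcription cofactors, rose to 281.4 ± 33.6 CPM with Arid3a-FLAG, against 114.1 ± 26.4 CPM with LUC (2.46-fold, SE 0.16 on the log2 scale, edgeR adjusted p = 0.00133, at most 0.0115 with 1 library left out). The list gave 2 rises without LUC library 2, without LUC library 3 or with DESeq2, where 8.52%, 4.42% and 5.66% of all genes rose. Gfi1 had 0 counts in all libraries. Its relative Gfi1b, which binds the LSD1 corepressor, had a log2 fold change of -0.10 (edgeR adjusted p = 0.609).

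Genes known to be driven by these factors were counted list by list. No test set the lists against the factors or against other genes. The lists came from general knowledge of targets in other cells, and were chosen with earlier results of these data known. Of 21 tested red cell targets of GATA1, 7 rose, 1 fell and 13 did not pass (median log2 fold change 0.17), beside 3.43% and 3.87% of all genes. Leaving out Arid3a-FLAG library 1, Arid3a-FLAG library 3 or LUC library 1 left 4 rises, where 0.821%, 1.5% and 1.36% of all genes rose. Leaving out LUC library 2 gave 9 rises and 2 falls, where 8.52% of all genes rose and 7.83% fell. Kel, a blood group protein, had 36.19, 33.62 and 34.59 CPM with Arid3a-FLAG, against 13.46, 9.29 and 11.98 CPM with LUC. That was a rise with a log2 fold change of 1.58 (SE 0.14, edgeR adjusted p = 0.000239). The adult alpha globin Hba-a1 rose to 140.8, 96.09 and 119.6 CPM with Arid3a-FLAG, against 26.69, 40.94 and 26.39 CPM with LUC (log2 fold change 1.93, edgeR adjusted p = 0.000415), with a near-identical copy in Hba-a2 that leaves its value uncertain. The other 5 that rose, named after their values were seen, were that copy (2.91), Epb42 (2.05) and Sptb (0.55) of the membrane skeleton, Fech (0.43), which makes haem, and Nprl3 (0.49), which shares 17.7% of its exon length with Mpg on the opposite strand. Of these, Sptb, Fech and Nprl3 each kept the call in 2 of the 6 fits with 1 library left out. Hba-a2 was near the lower limit, at 4.96 ± 2.65 CPM with Arid3a-FLAG and 0.67 ± 0.39 CPM with LUC (SD, n = 3 each). The red cell marker sums given above were also higher with Arid3a-FLAG. These sums hold Hba-a1 themselves. Of 9 tested red cell markers 1 rose (Hba-a1) and 2 fell, with a median log2 fold change of -0.07. The part of red cell content in the target counts was not tested.

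Of 17 tested megakaryocyte targets of GATA1 and RUNX1, 6 rose, 1 fell and 10 did not pass (median 0.35), beside 3.43% and 3.87% of all genes. Thbs1, which encodes thrombospondin-1, was at 254.1, 295.7 and 295.2 CPM with Arid3a-FLAG, against 32.7, 32.89 and 75.13 CPM with LUC (log2 fold change 2.58, edgeR adjusted p = 0.000672). Prkcq, which encodes protein kinase C theta, rose with a log2 fold change of 0.83 (SE 0.09, edgeR adjusted p = 0.000806). Prkcq was at 56.43, 53.71 and 52.36 CPM with Arid3a-FLAG, against 30.05, 29.56 and 31.85 CPM with LUC, with little spread in either group. Of the other 4 that rose, named after their values were seen, Gp1bb (0.82), Gp9 (0.69) and Gp5 (0.63) encode parts of the receptor for von Willebrand factor and Itgb3 (0.97) encodes the beta chain of the fibrinogen receptor. The Gp1bb value is uncertain, because 91.1% of its exon length also belongs to Sept5 in the same orientation, and Gp9 did not pass without Arid3a-FLAG library 1 (edgeR adjusted p = 0.0795). Ppbp, a platelet chemokine, fell to 326.6, 359.3 and 287.8 CPM with Arid3a-FLAG, against 521.5, 748.5 and 694.3 CPM with LUC (log2 fold change -1.01, edgeR adjusted p = 0.00299). Gp1bb, Gp9, Itgb3 and Ppbp are also among the megakaryocyte markers counted above. The part of megakaryocyte content in the counts of megakaryocyte targets was not tested. Of 9 tested megakaryocyte targets of NFE2, 4 rose, none fell and 5 did not pass (median 0.39), beside the same 3.43% and 3.87%. Nfe2 itself stood at -0.04. Plek, the platelet protein pleckstrin, was at 1451, 1395 and 1344 CPM with Arid3a-FLAG, against 797.7, 872.5 and 925.7 CPM with LUC (log2 fold change 0.69, SE 0.10, edgeR adjusted p = 0.00441). The serotonin transporter Slc6a4 rose with a log2 fold change of 0.85 (edgeR adjusted p = 0.00509). Casp12 (0.94) and Lims1 (0.39), named after their values were seen, kept the call in 3 and 2 of the 6 fits with 1 library left out. Leaving out Arid3a-FLAG library 1, Arid3a-FLAG library 2 or LUC library 1 left 2 rises among the NFE2 targets. In these fits 0.821%, 0.941% and 1.36% of all genes rose. Tubb1, the platelet tubulin that NFE2 is known to switch on, was near the lower limit at 1.83 ± 0.57 CPM with Arid3a-FLAG and 1.31 ± 0.24 CPM with LUC, a gene chosen after its values were seen.

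Of 13 tested genes listed as held down by GATA1, 1 rose, 1 fell and 11 did not pass (median -0.04), beside 3.43% and 3.87% of all genes. Repression by GATA1 in these cells was not tested for any of them. A count of 1 each way is too few to set the list apart from these shares. Mef2c, a factor of megakaryocytes and other lineages, rose with a log2 fold change of 0.63 (SE 0.10, edgeR adjusted p = 0.00576). The ETS factor Erg fell with a log2 fold change of -1.11 (SE 0.13, edgeR adjusted p = 0.000878). Erg was at 30.05, 29.15 and 38.55 CPM with Arid3a-FLAG, against 76.27, 62.65 and 72.17 CPM with LUC, with no overlap. With DESeq2 the list gave 2 rises and 2 falls, where 5.66% of all genes rose and 5.8% fell. Leaving out LUC library 2 gave 2 rises and 4 falls in this list, where 8.52% of all genes rose and 7.83% fell. Leaving out Arid3a-FLAG library 3 gave 3 falls, where 2.55% fell. The 10 targets and cofactors named here by the rule of smallest p kept their direction and their call with each library left out. They were chosen by p in the fit to all these libraries, so this is not independent support. The largest edgeR adjusted p was 0.05 after rounding, for Mef2c without Arid3a-FLAG library 1.

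**Figure D4:**
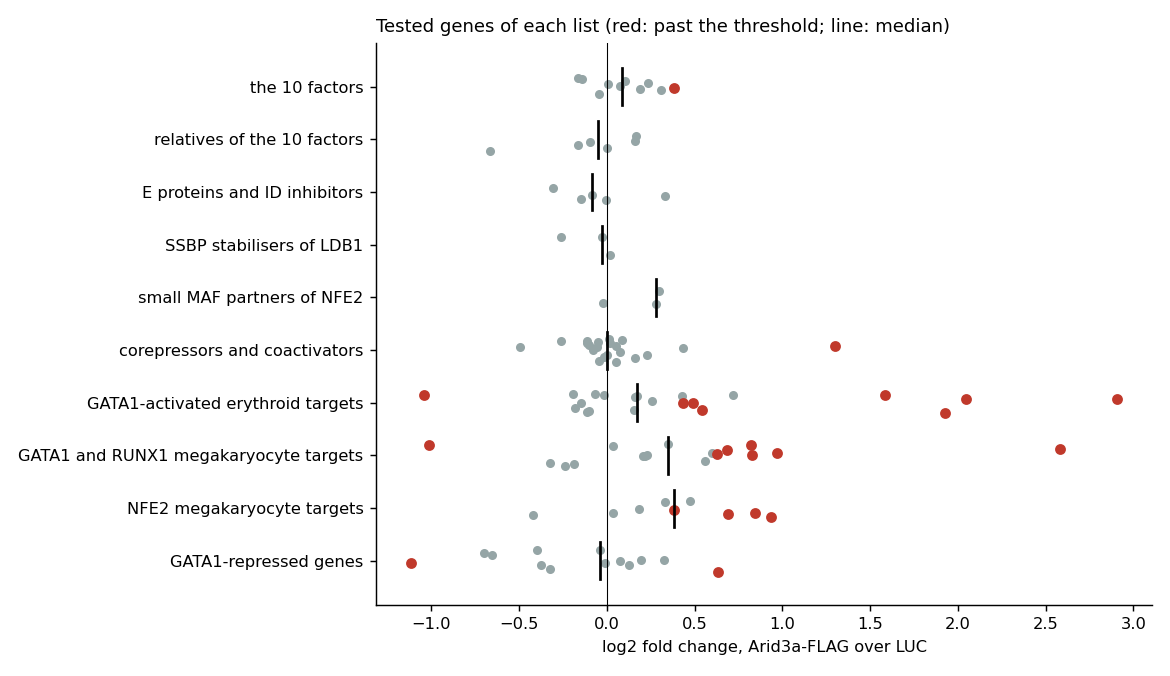
Log2 fold change, Arid3a-FLAG over LUC, of the tested genes of the 10 factors and of 9 lists of relatives, cofactors and targets; each point is 1 gene (red past the threshold, grey not), and the line is the median. The 10 factors lie between -0.16 and 0.38, while red points of the target lists reach from -1.11 (Erg) to 2.91 (Hba-a2, near the lower limit).

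The genes whose log2 CPM followed Gata1 most closely over the 6 libraries were Slc25a16, a mitochondrial carrier (Pearson r = 0.9954), Ppp1r8, an inhibitor of protein phosphatase (0.9950), and Vps35l, a subunit of an endosomal sorting complex (0.9936). They were ranked among 9571 genes of at least 5 CPM, and with 6 libraries high values of r arise easily. Like Gata1, each had LUC library 2 near the Arid3a-FLAG libraries. For Ppp1r8 the libraries were at 103.7, 98.88 and 100 CPM with Arid3a-FLAG and at 77.89, 99.59 and 83.93 CPM with LUC. None of the 3 passed (edgeR adjusted p = 0.306, 0.224 and 0.229).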

How the data were processed

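The deposited values are read counts per gene, 1 whole number per gene and library, made by the authors with fastp, HISAT2 2.0.5 and featureCounts on mm10, per the submitters' processing notes. The sources used here do not give settings, annotation release or strandedness. Columns were matched to samples by description. The table held 53802 entries. Library sizes and tests left out the entry of the construct. Symbols, positions and exon lengths came from GENCODE M21 (GRCm38, the assembly also called mm10), with 181 identifiers unmatched (between 0.0305% and 0.0467% of counts).

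The tests used edgeR 4.0.16 under R 4.3.3: filterByExpr, TMM factors, glmQLFit and glmQLFTest with group as the only term, two-sided, Benjamini-Hochberg adjustment over 13631 genes, threshold 0.05. SE was obtained from the fold change and F. CPM is TMM-scaled, without counts added. Ratios were compared by exact permutation tests in Python 3.11.15. Library totals of 15728150 to 18249053 limit the precision of low genes. The fits were tested on simulated data. Alternatives were RLE and upper quartile factors, 2 other filters, DESeq2 1.42.0, limma-voom (limma 3.58.1), a replicate block, the 20 most abundant genes left out, and each library left out.

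The 10 genes and the lists were chosen with earlier results of these data known. All 10 are named, with, from each list, up to 2 rising and 2 falling genes of smallest p past the threshold and the 3 genes closest to Gata1. The listed name Ahsp had no match in M21. One gene that the rule selects is not reported here.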

Additional observations from a re-analysis of the deposited data

How the results depend on the processing

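The number of genes past the threshold, 994 with all libraries, was 1945 with no filter on low counts and 1561 with DESeq2, and ran from 233 (without Arid3a-FLAG library 1) to 2286 (without LUC library 2) with 1 library left out. Of the 10 factors, 2 passed with no filter (Tal1 and Runx1), 0 with the replicate block, and 0 to 3 with 1 library left out. Of the 98 tested partner and target genes 22 passed, beside 7.29% of all genes. With no filter 34 passed, beside 1945 of 23914 genes. With 1 library left out the number ran from 16 (without Arid3a-FLAG library 1, beside 233 of 14001 genes) to 37 (without LUC library 2, beside 2286 of 13981 genes). The cause was not tested. Over the 14 alternatives and 10 factors, 127 of 140 fold changes kept direction and side of the threshold, 3 came past it (Gata1 and Runx1), 5 lost it (Tal1), and 5 changed sign: Lmo2 was -0.009 with upper quartile factors and ran from -0.042 to 0.105 with 1 library left out, and Nfe2 ran from -0.080 to 0.045. The Gata1 to Gata2 ratio difference ran from -0.077 to 0.232, that of Tal1 to Lyl1 from 0.419 to 0.637 and that of Runx1 to Cbfb from 0.084 to 0.326. Same-numbered libraries were not alike throughout: their deviations correlated at -0.084, -0.143 and 0.232 over 10291 genes, and only the libraries numbered 3 correlated best with their own number. The labels do not say whether the numbers mark pairs, and 3 correlations cannot exclude it. With the replicate block 940 genes passed, the log2 fold change of Tal1 was 0.387 (adjusted p = 0.0733), and the ratio differences were 0.083, 0.546 and 0.238, with sign-flip p of 0.75, 0.25 and 0.25, of which 0.25 is the smallest possible.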

Other observations

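Stem and progenitor markers, where the 10 factors are also expressed, gave no rise, 2 falls and 4 genes that did not pass out of 6 tested, beside 3.87% of all genes that fell, and summed to between 327.3 and 444.1 CPM in Arid3a-FLAG libraries and between 404.3 and 475.6 CPM in LUC libraries, with Hoxa9 at 0 counts. The falls numbered 1 on leaving out Arid3a-FLAG library 1 or 2 or LUC library 1 or 3. Without LUC library 2, 1 rose and 3 fell, beside 8.52% and 7.83% of all genes.

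The SD of log2 CPM was smaller in Arid3a-FLAG libraries than in LUC libraries for 9 of the 10 factors, Ldb1 being the exception, beside 71.3% of all tested genes. Among the LUC libraries, library 2 was the highest or the lowest for 9 of the 10 factors and for 11135 of 13631 tested genes.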
